A study of Mus musculus with 31 samples.

Results

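In the most advanced oocytes of a mouse follicle series, 42 regions of 100 bp were methylated on 40% to just under 70% of their reads in every library, although they had been mostly unmethylated in primordial follicles. Each region held at least 3 CpG sites of 5 or more reads, and its level is the percentage of methylated reads summed over those sites. A region was taken when all 3 Type7 libraries lay in that band, when its mean lay under 20% in Type1 and in Type2, and when it was measured in at least 2 libraries of each other stage. These are 42 of 163347 regions measured in any library, 42 of 29444 regions measured widely enough to be judged, and 0.241% of the 17406 of those that were low in Type1 and Type2. The regions were thus chosen by their Type1, Type2 and Type7 levels, which are given as a description, with no test.

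The libraries are reduced representation bisulfite sequencing of oocytes of B6D2F1 mice (C57BL/6 x DBA/2), an assay that cuts DNA with MspI at CCGG and converts unmethylated cytosine so that it is read as thymine. Primordial follicles gave Type1 and Type2 (3 libraries each), primary follicles Type3a and Type3b (3 each), secondary follicles Type4 (5), Type5a (5) and Type5b (3), and antral follicles Type6 and Type7 (3 each), 31 in all. The labels name no treatment, genotype other than the strain, or age. Groups follow the titles; a label of embryo stages goes against them. Neither the animals behind a stage nor the oocytes behind a library are counted in the labels. The spread that p-values here refer to is that between libraries, and it may be technical.

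Growing mouse oocytes acquire DNA methylation de novo through Dnmt3a and its cofactor Dnmt3l, mostly across transcribed gene bodies, where marks left by transcription guide the enzyme. CpG islands outside transcribed units are mostly left bare, so the oocyte genome is known for a contrast between fully methylated and unmethylated domains. A level in between is an average over sites, over both DNA strands and over the copies sampled, and each of these was read out here.

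The listed sites carry their neighbouring bases, so the part of each region around its CpGs can be printed, and 3 kinds of sequence are shown because the results below turn on them. Capitals mark CG and n marks a base that the files do not give. Patterns of sites that several members share come first, in mm9 coordinates. The first pattern was found in 6 members, of which 4 are shown:
chr15:57255408-57255491, plus strand: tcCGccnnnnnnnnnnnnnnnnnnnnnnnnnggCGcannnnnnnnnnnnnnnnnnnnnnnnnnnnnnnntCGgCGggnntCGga
chr2:98147804-98147880, minus strand: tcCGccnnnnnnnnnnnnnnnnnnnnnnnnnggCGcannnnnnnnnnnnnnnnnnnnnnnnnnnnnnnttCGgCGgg
chr6:61873425-61873469, plus strand: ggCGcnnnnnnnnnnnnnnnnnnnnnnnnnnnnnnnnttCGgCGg
chrX:153366540-153366584, minus strand: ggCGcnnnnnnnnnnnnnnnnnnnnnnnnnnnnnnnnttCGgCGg
The second was found in 4 members, of which 3 are shown:
chr11:9346511-9346569, minus strand: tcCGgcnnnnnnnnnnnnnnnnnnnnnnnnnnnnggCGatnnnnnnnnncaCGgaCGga
chr13:67747003-67747054, plus strand: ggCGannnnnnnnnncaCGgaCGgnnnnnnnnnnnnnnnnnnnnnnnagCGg
chr14:114497924-114497961, minus strand: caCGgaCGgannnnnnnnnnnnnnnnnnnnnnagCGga
The third was found in 4 members, of which the first 2 adjoin, and the first of these shares it only through sites across its edge:
chr2:75029766-75029791, plus strand: agCGgcnnnntcCGtgnnnntgCGct
chr2:75029804-75029852, plus strand: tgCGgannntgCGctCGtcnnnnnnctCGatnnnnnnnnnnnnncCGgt
chr14:74197004-74197070, plus strand: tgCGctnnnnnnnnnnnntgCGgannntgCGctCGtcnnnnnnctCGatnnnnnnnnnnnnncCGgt
chr2:119013310-119013365, minus strand: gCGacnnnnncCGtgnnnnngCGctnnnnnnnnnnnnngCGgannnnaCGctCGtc
The fourth was found in 3 members, of which 2 are shown:
chr2:21524722-21524788, plus strand: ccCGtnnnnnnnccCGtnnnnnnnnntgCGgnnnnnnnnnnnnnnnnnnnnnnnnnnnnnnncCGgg
chr12:68936545-68936575, plus strand: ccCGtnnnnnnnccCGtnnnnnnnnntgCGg

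The second kind are the members that matched a promoter. Site by site, 3 members matched a RefSeq promoter sequence of GRCm38.p6 on the same chromosome, and each also passed the test of a rise described below. Pacsin3 codes for an adaptor protein of endocytosis, Necab2 for a calcium-binding protein of neurons, and Gm35353 is a predicted gene. In these 100 bases of GRCm38.p6, capitals mark the CG at listed sites of the member:
Pacsin3, chr2:91256744-91256843, plus strand: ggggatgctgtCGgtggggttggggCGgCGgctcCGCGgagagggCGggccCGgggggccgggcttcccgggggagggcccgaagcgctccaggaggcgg
Necab2, chr8:119446501-119446600, plus strand: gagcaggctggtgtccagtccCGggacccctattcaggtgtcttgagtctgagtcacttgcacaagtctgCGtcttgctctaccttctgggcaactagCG
Gm35353, chr7:42505631-42505730, plus strand: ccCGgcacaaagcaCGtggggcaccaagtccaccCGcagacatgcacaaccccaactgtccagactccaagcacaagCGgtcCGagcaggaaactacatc
Counted from the annotated start, the centre of the region lies at base -20 for Pacsin3, -169 for Necab2 and -147 for Gm35353. Promoters were matched by 7.14% of members, by 2.25% of the regions above the band in each Type7 library and by 15% of those below it. The share was 7.57% over all judged regions, close to that of members, 4.55% in regions with Type7 libraries on different sides of a bound and 0.109% in regions of the band at 20% or more in Type1 or Type2. The other 39 members were not placed in or outside genes.

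The third kind are single members whose sites behaved unlike each other or unusually alike:
chr1:129935214-129935294, plus strand: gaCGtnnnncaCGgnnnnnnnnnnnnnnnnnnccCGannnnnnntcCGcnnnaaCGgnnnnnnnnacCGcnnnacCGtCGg
chr1:89081306-89081400, plus strand: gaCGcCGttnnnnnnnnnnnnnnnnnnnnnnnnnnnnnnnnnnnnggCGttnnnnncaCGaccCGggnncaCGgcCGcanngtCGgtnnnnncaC
chrX:132172629-132172661, plus strand: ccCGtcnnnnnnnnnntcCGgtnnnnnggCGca
The first of these is the member of even sites and the second one of wide spread. The third carries a CCGG site that was read as unmethylated between methylated neighbours.

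Within Type7 the members had like levels from library to library, as the rule required. Their mean level was 52.1, 53.9 and 53.0% in Type7 replicates 1, 2 and 3. The range between the 3 libraries had a median of 13.8 points over members. Of 502 low regions whose Type7 mean lay in the band, the 42 members are 8.37%, and the other 460 had a median range of 56.3 points. A Type7 mean in the band was thus mostly an average of unlike libraries. The members rested on 20 to 3276 reads per library in Type7 (median 144.5), and for 39 of them all 3 Wilson 95% intervals lay between 20 and 80%. Reads without molecular identifiers include PCR copies, so these intervals cover counting error only.

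Up to Type4 the members lay slightly above the regions that later became fully methylated, and from Type5a on they lay between these and the regions that stayed bare. Type1 libraries averaged 8.75% ± 4.91, Type2 libraries 6.71% ± 2.75, Type3a libraries 11.8% ± 9.64 and Type3b libraries 16.9% ± 4.99 (SD between libraries, n = 3 each). Type4 libraries averaged 22.6% ± 11.2 and Type5a libraries 15.7% ± 6.84 (SD, n = 5 each). Type5b libraries averaged 27.3% ± 4.52, Type6 libraries 49.5% ± 3.40 and Type7 libraries 53.0% ± 0.945 (SD, n = 3 each). The gain was therefore largest between Type5b and Type6, at 22.2 points, against 11.6 points between Type5a and Type5b. The later step was also the larger in regions with Type7 libraries on different sides of a bound, at 18.5 points against 8.44. It was the larger in regions of the band at 20% or more in Type1 or Type2 (13.99 against 5.68) and over all judged regions (8.45 against 5.03). This order was thus not particular to members. In the 1998 regions above the band in each Type7 library, the order was the other way round, with 17.7 points between Type5b and Type6 and 46.4 between Type5a and Type5b. Those regions were at 68.7% in Type5b and 86.4% in Type6, while the 14092 below the band stayed at 4.01 and 7.35%.

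**Figure D1:**
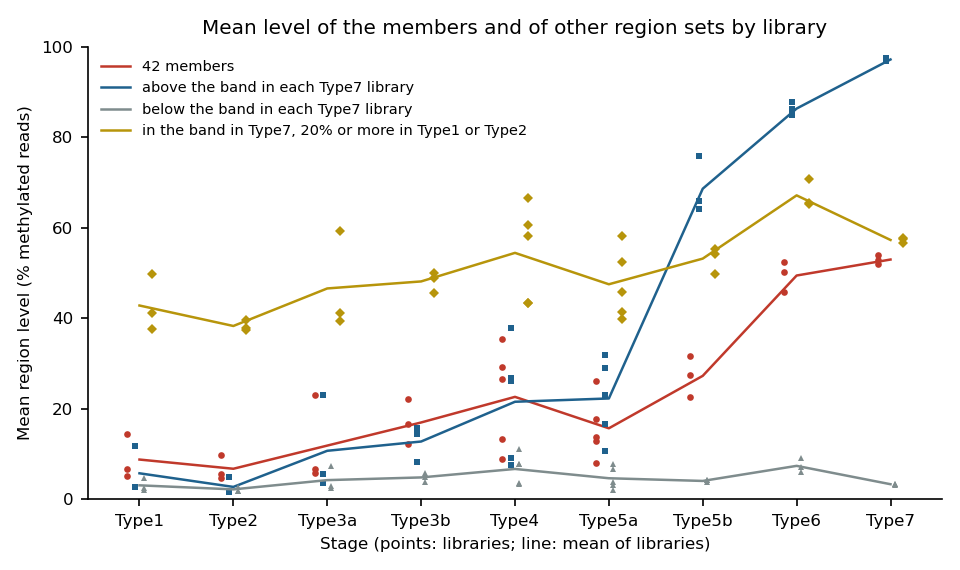
Mean level (% methylated reads) in each library, by stage, for the 42 members and for regions sorted by their Type7 values, with a line through the stage means. The members reached 27.3% in Type5b, when the regions bound for high levels were at 68.7%. In Type7 they were at 53.0%, beside 57.3% for regions in the band that were at 20% or more in Type1 or Type2.

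Library differences within the early stages were large. The 3 Type4 libraries with means of 26.5, 29.1 and 35.4% had an X measure above 0, and those with means of 8.77 and 13.3% did not. The X measure is the mean of 63 CpG-dense X regions minus that of 2902 CpG-dense autosomal regions, and it was above 0 in 9 libraries, of which 1 was of Type1, 1 of Type3a, 3 of Type4, 2 of Type5a and 2 of Type6. Without these, the member mean was 5.95% in Type1, 6.27% in Type3a, 11% in Type4, 11.5% in Type5a and 50.2% (1 library) in Type6. The part of the X measure in these levels was not tested.

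**Figure D2:**
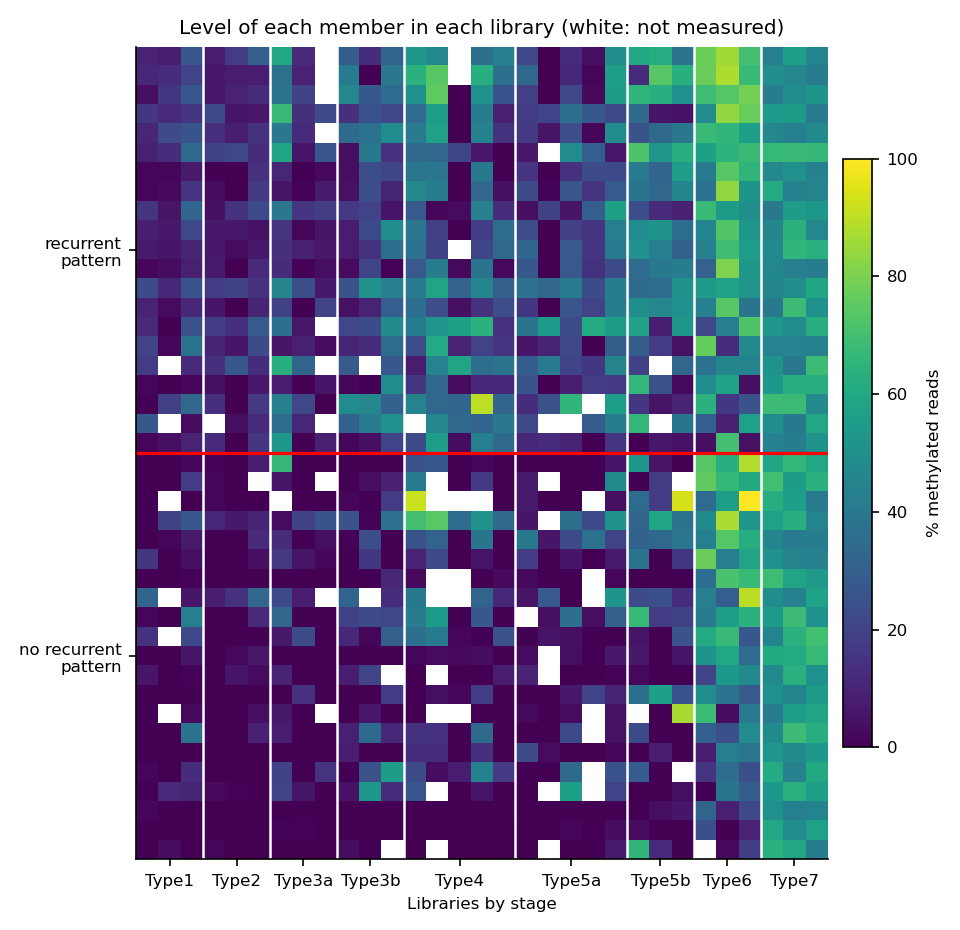
Level of each of the 42 members (rows) in each of the 31 libraries (columns, by stage), with the 21 members of recurrent site pattern above the red line and rows ordered by the Type6 mean. Members below the line start closer to 0. Type6 libraries differ among themselves more than Type7 libraries do, which the rule holds in the band.

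With the main settings, Type6 against Type5b was the step at which single members passed a test, and it uses no library that chose them. Some other settings, listed at the end, also called members in Type5b against Type5a. In the quasi-binomial model fitted on the 22 libraries of Type3a to Type6, 7 of 42 members were called higher in Type6 (16.7%), where 1.83% of all 61149 tested regions were, and 0 were called lower, where 0.0899% were. To be called, a region had to reach 20 points of difference with a Benjamini-Hochberg adjusted p under 0.05. Because low early levels and partial Type7 levels fix that members rise somewhere after Type2, a rise as such is no finding, but the step at which it passes the test is not fixed. The difference was above 0 in 38 members and below 0 in 4, with a median of 19.4 points beside 3.03 points over all tested regions. At an unadjusted p under 0.05 stood 14 members (33.3%) beside 21.1% of all regions.

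The Pacsin3 promoter region (chr2:91096901-91097000 in mm9, 7 sites) had 36.2, 71.3 and 67.4% in Type6 replicates 1, 2 and 3, against 0, 0 and 0% in Type5b. It was bare in every Type5b library and partly methylated in every Type6 library, a difference of 58.3 points (adjusted p = 0.00796). These levels rest on 495, 425 and 861 reads in Type6 and on 133, 76 and 79 reads in Type5b. In Type7 it stood at 68.9, 58.5 and 54.0%.

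The region chr15:57255401-57255500, which carries the first shared pattern, had 48.1, 83.8 and 76.7% in Type6, against 34.4, 5.71 and 5% in Type5b. The libraries did not overlap, with a difference of 54.5 points (adjusted p = 0.041), but Type5b replicate 1 lay well above the other two. Reads numbered 81, 105 and 249 in Type6 and 64, 35 and 80 in Type5b. Its Type7 levels of 54.2, 54.5 and 40.9% were below 2 of the 3 Type6 levels.

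The region chr1:89081301-89081400 had 51.9, 60 and 35.1% in Type6, against 6.82, 0 and 5.84% in Type5b. Again no Type5b library reached the lowest Type6 library, and the difference was 44.8 points (adjusted p = 0.00061). Reads numbered 160, 60 and 567 in Type6 and 176, 129 and 308 in Type5b.

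The region chr11:13662301-13662400, whose pattern recurs at 101 other places, had 67.3, 54.7 and 49.9% in Type6, against 23.8, 12.0 and 9.33% in Type5b. The difference was 42.2 points (adjusted p = 0.0182), and its Type1 and Type2 means were already 17.6 and 13.7%.

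The other called members were the Necab2 promoter region (chr8:121970401-121970500), the Gm35353 promoter region (chr7:49761001-49761100) and chr19:56394801-56394900. The Necab2 region had 20.7, 53.4 and 48.0% in Type6, against 2.33, 0 and 0% in Type5b. Its difference of 39.9 points had an adjusted p of 0.0461. The Gm35353 region had 8.11, 43.1 and 39.4% in Type6, against 0, 7.82 and 0.386% in Type5b, and Type6 replicate 1 lay only just above the highest Type5b library. Its difference of 27.5 points had an adjusted p of 0.0484. The chromosome 19 region had 77.2, 42.7 and 58.5% in Type6, against 38.0, 0.403 and 16.4% in Type5b (41.2 points, adjusted p = 0.0140). All 7 regions had non-overlapping libraries. The calls depended on the model: limma on logit values called 1 of the 7, the Pacsin3 promoter, and a fit on both stages alone called 0. The X measure was above 0 in 2 of 3 Type6 libraries and in 0 of 3 Type5b libraries, and without those libraries 6 members were called. Type5b replicate 2 mattered most among single libraries, since 3 members were called without it, and 4 were called without Type5b replicate 3.

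**Figure D3:**
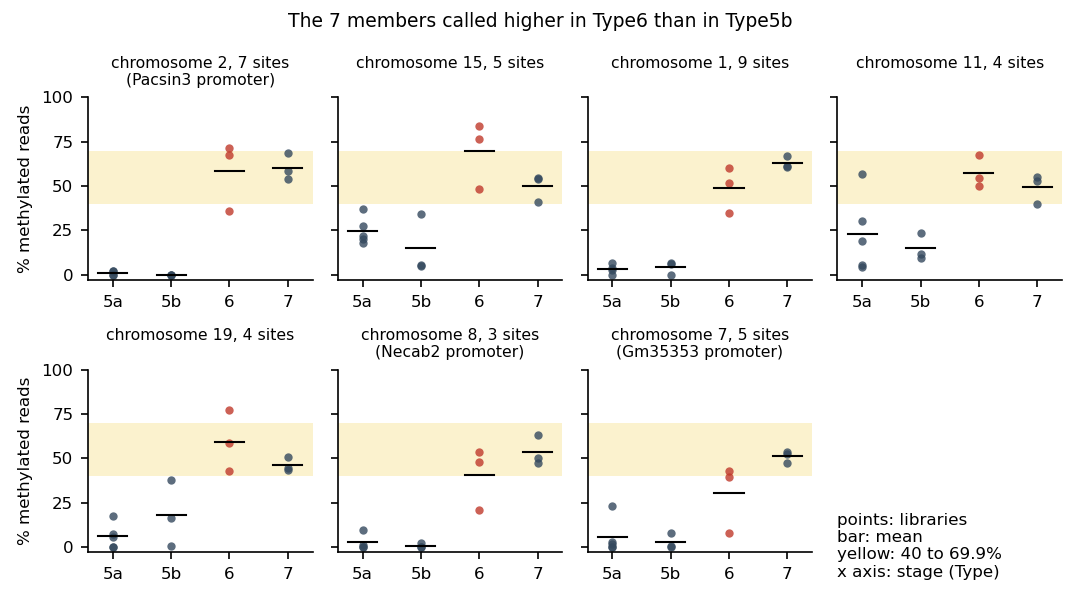
Level (% methylated reads) in each library of Type5a, Type5b, Type6 and Type7 for the 7 members called higher in Type6 than in Type5b, ordered by the difference, with means as bars and the band of the rule in yellow. All Type6 points lie above all Type5b points in each panel.

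At earlier steps no member was called with the main settings. In Type5b against Type5a, 0 of 42 members were called, where 3.88% of all regions were called in either direction. There, 14 members (33.3%) had an unadjusted p under 0.05, beside 17.4% of all regions, and limma also called 0, with 6 members at an unadjusted p under 0.05. The median difference was 10.6 points in members and 0 over all regions, and 28 members lay higher in Type5b and 14 lower. In Type5a against Type4, 0 members were called (0.00829% of all regions), with 4 at an unadjusted p under 0.05 (9.52%, beside 9.85% of all regions), and the median difference was -4.14 points in members and -0.23 over all regions. In Type4 against Type3b, 0 were called (0.0236% of all regions), with 1 at an unadjusted p under 0.05 (2.38%, beside 10.3% of all regions). In Type3b against Type3a, 0 were called (0.00194% of all regions) and 0 had an unadjusted p under 0.05, beside 6.57% of all regions. limma called 0 members in each of these 3 steps, with 2 members at an unadjusted p under 0.05 in each.

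By the median over members, Type6 libraries were less alike than Type7 libraries, which the rule holds in the band. The rule largely fixes that contrast, so no change from Type6 to Type7 is read from it. Of 41 members measured in all 3 Type6 libraries, 6 lay in the band in each (14.6%), 1 above it in each, 4 below it in each and 30 had libraries on different sides. The same share was 0.358% of regions above the Type7 band, 0.294% of those below it and 4.72% of all judged regions. It was 24.5% of the 1843 regions that were in the Type7 band but at 20% or more in Type1 or Type2. The members' Type6 libraries spread over a median of 31.5 points, against 10.9 points for that set. Regions with Type7 libraries on different sides of a bound had nearly the members' spread, at 29.6 points. Of those regions, 4.19% lay in the band in each Type6 library and 59.0% had Type6 libraries on different sides. By mean, 25 members lay in the band in Type6, 4 above and 13 below, and 19 had a higher mean in Type6 than in Type7. In Type5b, 2 of 37 members measured in all 3 libraries lay in the band in each, and 17 below it in each. No member lay in the band in each Type5b and each Type6 library.

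At the ends of the Type6 order, the direction into Type7 is fixed by the rule, which holds every Type7 library in the band, and only the values are given. The region chr12:73171401-73171500, which holds 12 listed sites, had 59.5, 49.2 and 57.4% in Type7, against 24.6, 0 and 9.92% in Type6. The region chr2:168055201-168055300 had 50.3, 43.3 and 45% in Type7, against 31.8, 8.64 and 22% in Type6. The region chr4:150519401-150519500 had 53.5, 63.4 and 56.5% in Type7, against 0, 38.9 and 29.4% in Type6. In these 3 every Type7 library lay above every Type6 library. At the other end, chr2:98147801-98147900 had 42.6, 56.2 and 44.7% in Type7, against 77.7, 85.9 and 70% in Type6. The region chr6:61873401-61873500 had 49.1, 46.4 and 42.3% in Type7, against 77.5, 87.5 and 67.4% in Type6. Both carry the first shared pattern, and every Type7 library lay below every Type6 library. The region chr19:56394701-56394800 had 59.0, 66.2 and 59.4% in Type7, against 73.8, 62.7 and 88.2% in Type6, which overlap.

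Many members had a site pattern that recurs in the genome, at a share not far from that of all judged regions. A pattern counts as recurrent when 3 neighbouring sites that span at least 20 bases occur with the same distances and bases at 5 or more other places over 1 kb away. This held for 21 of 42 members (50.0%), for 4.55% of the regions above the Type7 band, 12.5% of those below it, 24.7% of those with Type7 libraries on different sides and 43.5% of all judged regions. It held for 96.4% of the regions in the Type7 band at 20% or more in Type1 or Type2. The pattern occurred at 100 or more other places in 14 members (33.3%), a share near the 36.1% of all judged regions and below the 89.7% of that last set. Position and bases were not used to choose the members. How reads of near-identical copies were placed is not given in the sources used here, so the levels of these 21 members are uncertain as levels of 1 place.

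Members of recurrent pattern had higher levels early and a flatter course. Their mean was 12.3% ± 5.97 in Type1, 36.4% ± 3.43 in Type5b, 54.2% ± 6.02 in Type6 and 51.3% ± 1.68 in Type7 (SD, n = 3 each). In the other 21 members it was 5.06% ± 3.97 in Type1, 18.1% ± 5.35 in Type5b, 44.6% ± 3.40 in Type6 and 54.7% ± 0.675 in Type7. A Type5b mean under 10% was seen in 1 recurrent member and in 9 others. Of the 7 members called in Type6 against Type5b, 2 were recurrent and 5 were not. A Type6 mean above the Type7 mean was seen in 12 recurrent members and in 7 others.

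Copies of one pattern moved together in some libraries. The 4 members of the third pattern lay at 31.6 to 43.2% in Type6 replicate 1, at 73.5 to 83.5% in replicate 2 and at 51.6 to 65.3% in replicate 3. So all 4, of which 2 adjoin, were lowest in the first library and highest in the second. The mean over all members had the same order, at 45.8, 52.4 and 50.2%. Replicate 2 was also highest over all judged regions, at 42.4%, beside 39.4% in replicate 1 and 38.3% in replicate 3. How much of the shared movement belongs to the library as a whole was not tested. The members of the second pattern lay at 40.6 to 53.2%, 62.5 to 68.5% and 46.4 to 63.4% in Type7 replicates 1, 2 and 3, and all 4 were highest in replicate 2 in Type6 (57.7 to 74.1%). In Type6 replicate 3 one member of that pattern, chr14:114497901-114498000, stood at 3.90% while the others lay at 39.0 to 55.6%. The 6 members of the first pattern were spread over 73.8, 75 and 74.8 points in Type6 replicates 1, 2 and 3. In Type7 they lay within 12.1, 13.8 and 10.8 points, a spread that the rule itself limits.

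The members were a small part of the copies of the first pattern and of the fourth, and 4 of 10 judged regions of the third. The first pattern had 1332 other judged regions, with a Type7 median of 27.7% (quartiles 21.8 and 36.1%), of which 13.5% had a Type7 mean in the band. The fourth had 2250, with a median of 61.1%, of which 67.9% were in the band and 42 were low in Type1 and Type2. Its other copies already had a median of 44.4% in Type1. The second pattern had 24 other regions with a median of 38.5%, and the third 6 with a median of 21%.

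Most single sites of members were themselves partly methylated. Of sites with 10 or more reads in members, 78.9% lay between 20 and 80% in Type7, 9.59% at 20% or less and 11.5% at 80% or more. In Type6, which chose nothing, the shares were 61.7, 23.5 and 14.8%. In regions above the Type7 band, 4.53% of Type7 sites lay between the limits, and 95% at 80% or more. Sorting by Type7 levels largely fixes that contrast. Regions of the band at 20% or more in Type1 or Type2 had 85.4% between the limits in Type7 and 72.4% in Type6, more than members. Regions with Type7 libraries on different sides of a bound had 41.5 and 40.4%. By region, 13 of 42 members had all such sites between the limits in each Type7 library, and 13 had a site at 20% or less beside one at 80% or more in at least 1 library. That mixture stood in all 3 Type7 libraries for 2 members.

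The chromosome 1 region at chr1:129935201-129935300 was one of the most even among the 26 members with at least 4 sites of 5 or more reads in each Type6 library. Its 8 sites lay at 47.8 to 56.5% in Type7 replicate 1, at 66.7 to 71.0% in replicate 2 and at 42.9 to 52.4% in replicate 3. In Type6 they lay at 36.8 to 44.2%, 52.4 to 61.5% and 50.0 to 69.0%. The sites thus shared a level that differed between libraries. By the averaged SD of site levels in Type6, among those 26 members, its spread of 3.73 points came next to 2.91 points at chr2:98147801-98147900, and the Gm35353 promoter region followed with 5.07.

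Among the same 26 members, the widest spread, 38.4 points in Type6, was at chr1:89081301-89081400. Its sites with 10 or more reads, 4, 9 and 5 in number, ran from 0 to 100% within each Type7 library, and site by site the libraries differed. The site at base 53 of the region was at 73.3, 16.7 and 0% in Type7 replicates 1, 2 and 3, and at 100, 93.3 and 75.3% in Type6. The level of 60.6 to 67.0% in Type7 was thus reached from different sites. Next among them came chr19:56394801-56394900 with 29.6 points and chrX:153366601-153366700 with 24.4 points.

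At chrX:132172601-132172700 the partial level came from 1 site read as unmethylated among 3, too few to be ranked above. The CCGG site at base 47 had 0 methylated of 30, 24 and 15 reads in Type7 and 0 of 10, 44 and 77 reads in Type6. Its neighbours at bases 31 and 58 were at 100% in each Type7 library. In Type6 the neighbours were at 80 to 100%. By counting alone, a count of 0 in 77 reads allows a level of up to 3.90%, and in 15 reads of up to 20%. That site lies where MspI cuts, and whether its reads show the methylation of the oocytes' own DNA was not tested. Across members, 24 had a listed site in CCGG, of which 18 stayed in the band in each Type7 library without those sites and 1 lay above it in each.

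**Figure D4:**
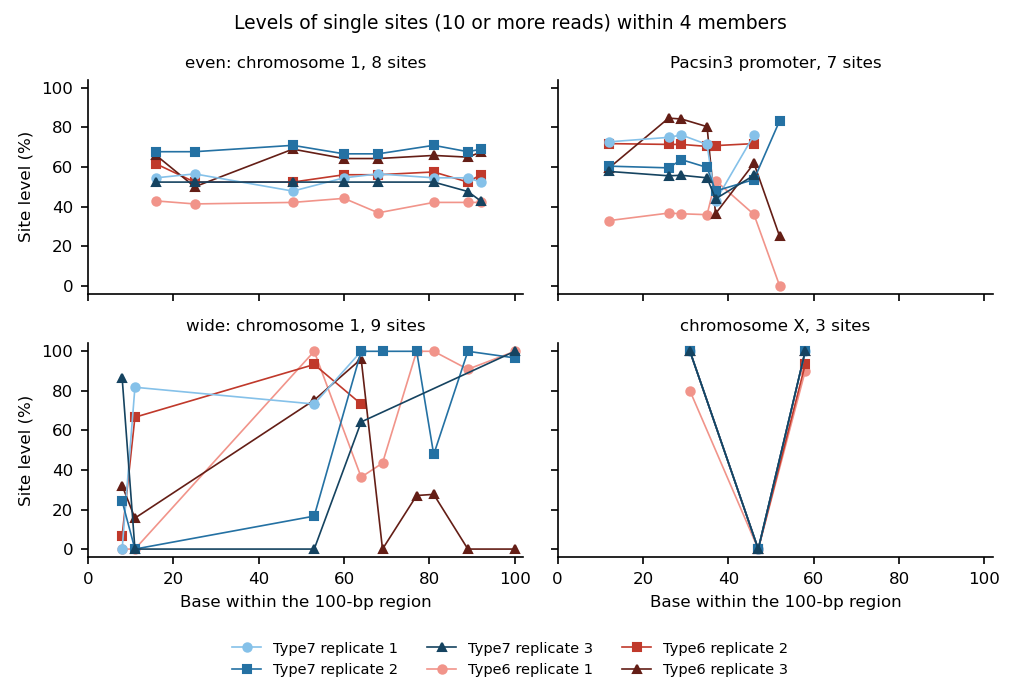
Level (%) of single sites with 10 or more reads along 4 members, by base within the 100-bp region, for 3 Type7 libraries (blue) and 3 Type6 libraries (red). The sites of the even region lie within 66.7 to 71.0% in Type7 replicate 2, while the wide region runs from 0 to 100% and the X region dips to 0% at 1 site in every library.

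The strands of a site often disagreed in members. Reads of the plus and the minus strand come from different original DNA strands, so both were compared where each had 10 or more reads. In Type7 the median difference between strands was 53.0 points over 111 values at 70 sites in members. Neighbouring sites share reads, so these values are not independent. It was 0 points in regions above the band, 0 in those below it and 15.4 in the regions of the band at 20% or more early. A difference of 80 points or more was seen for 13.5% of member values and for 1.42% of the values of that last set. Regions whose Type7 libraries lay on different sides of a bound had a like share, 15.5%, with a median of 30 points. The median was 34.5 points in members of recurrent pattern and 58.0 in the others, and in Type6 it was 26.2 points over all members, beside 22.2 in the regions with Type7 libraries on different sides. Part of this is fixed by level, since strands can differ only little where a site is near 0 or 100%. Members had a median of 19.1 to 42.7 reads per site in Type7, against 58.7 to 145 in the early set. In Type7 replicates 1, 2 and 3 the member median difference was 39.6, 57.3 and 78.2 points, at a median of 42.7, 36.2 and 19.1 reads per site. Regions with Type7 libraries on different sides had 29.3, 25.9 and 38.5 points, at 47, 31.7 and 17 reads per site. The part of depth in the difference was not tested.

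In the members named here, whole runs of sites followed one strand. Neighbouring sites of a region share reads, and reads include PCR copies, so the sites of a run are not separate observations. At chr1:129935201-129935300 in Type7 replicate 2, the 8 sites lay at 93.8 to 100% on the plus strand and at 35.7 to 38.5% on the minus strand. At chr12:73171401-73171500 in Type7 replicate 3, the 8 sites read on both strands were at 0% on the plus strand (12 to 13 reads) and at 100% on the minus strand (27 to 28 reads). Among sites with fewer plus-strand reads, 2 were at 0% on both strands, each with 27 reads of the minus strand. In the Gm35353 promoter region, 3 sites were at 100% on the plus strand and at 41.5 to 42.3% on the minus strand in Type7 replicate 2. In the Pacsin3 promoter region, 6 sites were at 64.1 to 100% on the plus strand and at 0% on the minus strand in Type6 replicate 1. In Type7 replicate 2 the same region had 37.5 to 48.4% on the plus strand and 69.0 to 100% on the minus strand, so the higher strand was not the same.

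**Figure D5:**
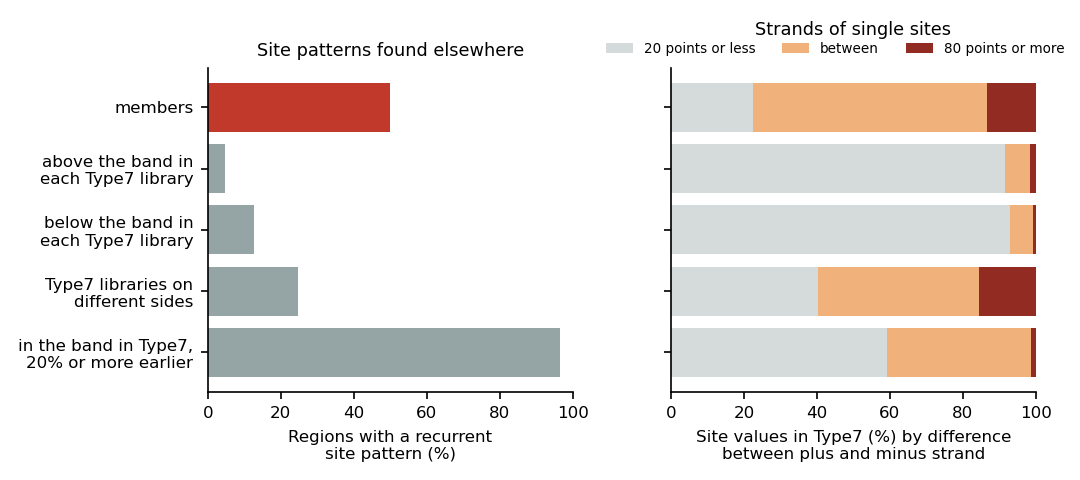
Left, percentage of regions with a site pattern found at 5 or more other places, for members and for regions sorted by their Type7 values. Right, percentage of Type7 site values by the difference between plus and minus strand, for sites with 10 or more reads on each, where members have 22.5% at 20 points or less and the regions in the band at 20% or more early have 59.2%.

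The surroundings of members were mixed. Within 1 kb, 16 of 42 had no other judged region, and the 33 neighbours of the rest fell below the band by Type7 mean in 10 cases, in it in 18 and above it in 5. The 18 include the members of the 3 adjoining pairs named below, which count each other and are held in the band by the rule. Neighbours on one fragment also share reads. Regions above the band had 97.1% of their neighbours above it, and those below it 98.6% below it. Mixed neighbours were also seen in regions with Type7 libraries on different sides (52.2% below, 29.1% in and 18.6% above the band) and in regions of the band at 20% or more early (7.72, 43.6 and 48.6%). Only 7 members had a neighbour on both sides, and 0 of these had 1 above and 1 below the band. That was uncommon elsewhere too, at 4 of 83 regions above the band and 23 of 2999 below it. It held for 17 of 171 with Type7 libraries on different sides and 19 of 834 in the band at 20% or more early. Listed sites numbered a median of 18 per kb around members, 11 around regions above the band and 32 around those below it. The X chromosome held 5 members (11.9%), beside 1.80% of the regions above the band, 2.78% of those below it, 4.95% of those with Type7 libraries on different sides and 5.21% of those in the band at 20% or more early. The X members include 1 of the adjoining pairs. All of them but chrX:166429201-166429300 had a recurrent pattern, so their place is uncertain. There were 3 pairs of adjoining members, on chromosome 2 (chr2:75029701-75029900), chromosome 19 (chr19:56394701-56394900) and the X chromosome (chrX:153366501-153366700). The left neighbour of the Pacsin3 region exceeded the upper bound in 2 libraries, with 72.5, 70.5 and 54.8% in Type7.

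The bounds of the rule passed through a continuous range. Just inside the lower bound lay chr2:21524701-21524800, with a lowest Type7 library at 40%, and chr11:13662301-13662400 at 40.1%, and just outside lay regions at 39.8 and 39.3%. Just inside the upper bound lay chrX:166429201-166429300 at 69.6% and chr5:141377101-141377200 at 69.7%, and just outside lay regions at 70.8 and 72.5%. Just inside the early limit lay chrX:153366601-153366700, with a Type1 mean of 19.98%, and just outside lay regions with a higher mean of Type1 and Type2 at 20.96 and 21.1%.

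Libraries held 7949652 to 60361665 reads over listed sites, and each measured 32 to 42 of the 42 members. All 3 Type7 libraries measured all 42.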

How the data were processed

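Per the labels' protocols, lysed oocytes were cut with MspI, adaptor-ligated, bisulfite-converted, PCR-amplified and size-selected. Per the submitters' processing notes, BSMAP 2.89 and build mm9 were used; no caller or trimming step is named in the sources used here. The deposited files list, per CpG site, counts of all and of methylated reads, in total and by strand, and the methylated fraction, which was not used. No listed site has under 3 reads, and mitochondrial sites were left out. Variants of C to T between strains read as unmethylated, and incomplete conversion as methylated.

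Regions are fixed 100-bp windows. The members and lists were chosen with earlier results of these data known. Methylated and total read counts were fitted by a quasi-binomial model on the 22 libraries of Type3a, Type3b, Type4, Type5a, Type5b and Type6, over every region measured in 2 or more libraries of both stages. The Pearson dispersion was moderated as in limma's squeezeVar (limma 3.58.1, R 4.3.3) and floored at 1. Adjacent stages were compared by F test with Benjamini-Hochberg adjustment over all regions tested. On simulated reads the model recovered larger changes more often and gave more small unadjusted p-values than it should. Unadjusted counts are therefore read only beside those of all regions. The adjusted p-values are computed from the same p-values and may be too small as well. Named regions are the 4 called members of largest difference without overlap in the libraries, the pairs of adjoining members, the 3 highest and lowest Type6 means, the 3 widest and narrowest site spreads, and the regions at the bounds; others were chosen after their values were seen. Promoters were matched by the bases around 3 or more sites of a region to RefSeq sequences of GRCm38.p6, on the same chromosome, with at least 3 other matches at the same distance within 5 Mb. The alternatives are other site, read, grid and band settings, other fits, a replicate block and libraries left out. Leaving out CCGG sites, and members of recurrent pattern, were chosen after seeing the data. Computations ran in Python 3.11.15 (scipy 1.17.1, with numpy 2.4.6 and pandas 2.3.3).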

Additional observations from a re-analysis of the deposited data

How the results depend on the processing

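The number of members was 37 with at most 10 reads per site, 41 on a grid shifted by 50 bp and 38 without CCGG sites (35 shared). It was 25 with at least 10 reads per site, 13 with at least 5 sites, and 176 with a band of 30 to just under 80%; leaving out a library that chose them gave 34 to 129, the most without a Type7 library, since fewer libraries then have to lie in the band. The mean level in Type7 was 54.5, 54.1 and 50.8% with at least 5 sites, at most 10 reads and the wider band. It was 21.8% in Type5b with at least 5 sites, 45.1% in Type6 with the wider band and 11% in Type4 without libraries of an X measure above 0. In members without a recurrent pattern alone it was 2.64% in Type2, 9.60% in Type3b and 8.18% in Type5a, and from Type5b on it was 18.1, 44.6 and 54.7%.

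With each library left out the stage means ran from 5.95 to 10.5% in Type1, 5.14 to 7.71% in Type2, 6.27 to 14.8% in Type3a, 14.4 to 19.4% in Type3b, 19.4 to 26.1% in Type4, 13 to 17.6% in Type5a and 25.1 to 29.6% in Type5b. Type6 ran from 48.0 to 51.3% and Type7 from 52.5 to 53.5%. The share of members in the band in each Type6 library was 52.4% with the 1 Type6 library of no X measure above 0, where fewer libraries have to lie in it, 5.00% in members without a recurrent pattern, and 22 to 26.8% with 1 Type6 library left out.

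Members called higher in Type6 than in Type5b numbered 7, against 9 in a fit on all 31 libraries, 8 by adjusted p alone and 6 without libraries of an X measure above 0, where the 1 Type6 library left is assumed to vary like the other groups. They were 4 of 13 with at least 5 sites, 2 of 37 with at most 10 reads, 3 of 41 on the shifted grid, 21 of 176 with the wider band, 0 in a fit on both stages alone, 1 by limma, and 3 to 6 with 1 library left out. Members called higher in Type5b than in Type5a were 1 with at most 10 reads, 3 on the shifted grid, 5 with the wider band, 4 without libraries of an X measure above 0, 1 in the fit on all 31 libraries and 0 to 3 with 1 library left out, the 3 without Type5a replicate 7. No other step gave a call in members under any of these settings. The cause was not tested where none is named. The replicate numbers were not taken as pairs: deviations of same-numbered libraries correlated at 0.0302, 0.0166 and -0.0011 in Type6 and Type5b, at 0.00324, 0.233, 0.0369 and 0.125 in Type5a and Type4, and at -0.139 to 0.0458 in the other steps, and with the replicate block limma called 0 members in Type6 against Type5b, against 1 without it. For the 7 called regions the differences stayed above 0, but many calls were lost: Pacsin3 was past the threshold in 14 of 16 settings, chr1:89081301 in 13 of 16, chr11:13662301 and chr19:56394801 in 9 of 15 each, chr15:57255401 in 7 of 16, Gm35353 in 4 of 15 and Necab2 in 4 of 14, with adjusted p up to 0.468. Depth limits the members of few reads, the lowest having 20 in a Type7 library.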
